A study of Mus musculus with 965 samples.

Results

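Single cells of the Dnmt3b-null clone 3B77 were followed from day 3 to day 6 of embryoid body (EB) differentiation. The clone and the days were taken from the labels, which gave 79 cells at day 3 and 71 at day 6, or 150 of the 965 cells of the series. The study's text does not give the same collection days and cell number as the labels, so day 6 here means the day that the labels state. A further plate labelled as 3B77 at day 8 was left out, because its label was in doubt. The cells of each day were sorted from pooled EBs into the wells of 1 plate, and both plates belonged to batch 3, which held no other clone.

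All cells derived from E14, a mouse embryonic stem cell (ESC) line. 3B77 is a homozygous Dnmt3b knockout (Dnmt3b-/-), and every value below describes 1 clone. EBs were formed by withdrawal of leukemia inhibitory factor in low-attachment wells, where ESCs aggregate and differentiate. The lines used for comparison were the wild type (WT), the Dnmt3a-/- clones 3A2 and 3A38 and the second Dnmt3b-/- clone, 3B126, grown in the same way. Libraries were made by a variant of Smart-seq2, a plate method that reads along the whole transcript and carries no molecular identifiers, so that reads and not molecules were counted.

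DNMT3B and DNMT3A are the de novo DNA methyltransferases that place methyl groups on CpG sites as the embryo implants. In EBs, ESCs first leave naive pluripotency, in which genes such as Zfp42 and Esrrb are active, for a primed state resembling the epiblast, marked by Fgf5 and Lefty2. They then lose the pluripotency network and enter ectoderm or mesoderm and endoderm, and without mesoderm-inducing signals the neural path is a common outcome.

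A 3B77 cell held between 50096 and 857306 reads. The median was 320674 reads and 6907 detected genes at day 3, against 312855 reads and 7203 genes at day 6. The median mitochondrial share was 16% at day 3 and 11.9% at day 6. No column was shared by both plates, and the highest Pearson correlation between any pair of the 150 cells was 0.674, on log2 CPM across genes. Levels are given as scaled CPM, the count of a gene relative to the total count of the plate, corrected by the TMM factor of that plate. Since there was 1 plate per day, the days could not be tested against each other. A gene was called higher or lower at 2-fold or more, on the log2 scale after 1 CPM was added to each level. Intervals in parentheses are 95% exact Poisson intervals for levels and ratios, and exact binomial intervals for shares of cells. They cover counting error only, and PCR copies make them too narrow. Shares of cells in percent were taken after each cell was thinned to 50000 reads, and numbers of cells with a read are from all reads.

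The transcript of the targeted gene was examined first. Dnmt3b (chromosome 2, 153649411 to 153687730 in GRCm38.p6) ranged at day 3 from 0 to 197 CPM per cell with a median of 13.2, and at day 6 from 0 to 122 with a median of 1.44. The cells of the days overlapped, and the transcript of the knocked-out gene was still read. Summed over the plates, Dnmt3b was 3.22-fold lower at day 6 (2.81 to 3.69), with 29.5 CPM at day 3 and 9.16 at day 6. At day 3 the other lines stood at 316 (WT), 220.5 (3A2), 273 (3A38) and 29.7 CPM (3B126), so that both Dnmt3b-/- clones were low. At day 6 the order was less clear, with 3A38 at 8.02 CPM and 3B126 at 45.7. Counts per gene do not show which exons the reads covered, and thus do not show the deletion itself. Dnmt3a (chromosome 12, 3801559 to 3914443) was intact in this clone and went from 128 to 22.5 CPM, 5.69-fold lower at day 6 (5.25 to 6.17).

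Of the genes, 8347 had a mean level of at least 5 CPM over both days and a read in at least 15 of the 150 cells. Among them 639 (7.66%) were higher at day 6 by 2-fold or more and 727 (8.71%) were lower. The split depended on the scaling. Of the called genes 46.8% were higher at day 6 with TMM scaling but 73% with plain CPM, under which 9106 genes passed. Over the same 8347 genes the median log2 difference was -0.06 with TMM scaling and 0.21 with plain CPM. The lists described below are read against these shares. A gene that is absent on one day passes the filter through the other day only, so the counts of a list describe it and do not test it. The plot of gene lists shows the spread of their members.

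**Figure D1:**
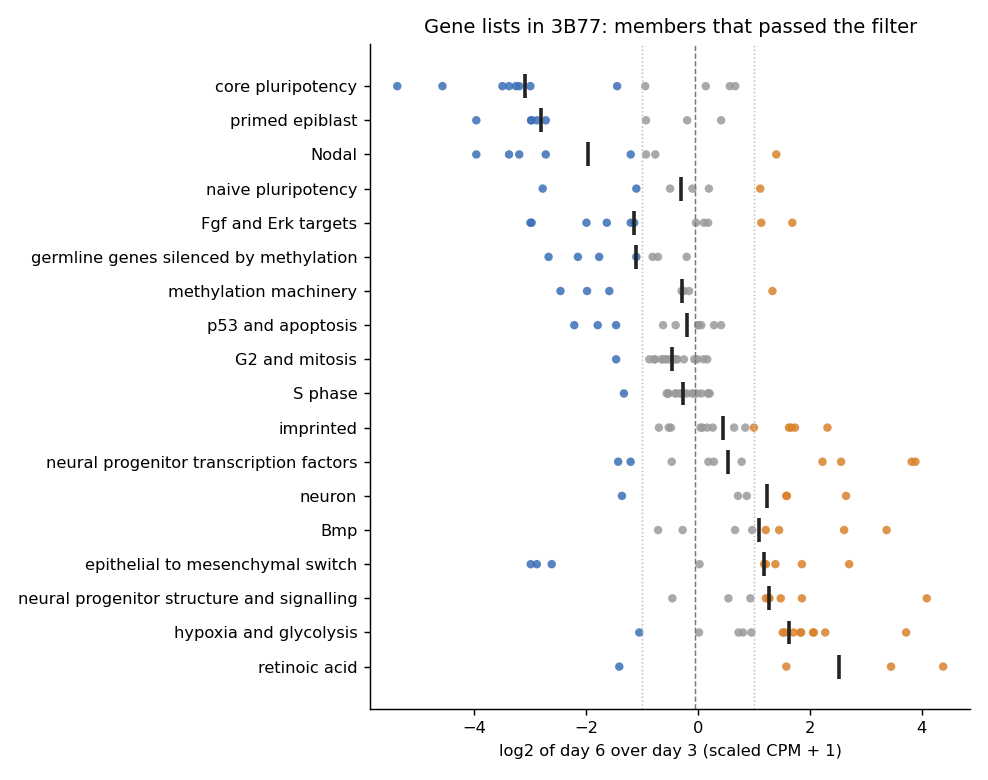
Log2 ratio of day 6 over day 3 (scaled CPM with 1 CPM added) of each list member that passed the filter. Points are genes, coloured blue or orange when 2-fold or more lower or higher at day 6, vertical bars are list medians, the dashed line is the median of all 8347 genes and the dotted lines mark 2-fold. The core pluripotency median lies at -3.09 and the hypoxia and glycolysis median at 1.63.

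The 150 cells fell into 3 clusters, described here by their leading genes. The genes were used to form the clusters, so their levels there are no test. Cluster 1 held 66 cells, all of day 6, or 93.0% of that day (84.3 to 97.7). Among its leading genes were Fam181b, Tnfrsf19, Frzb, Wls and Crabp2. Of 10 neural progenitor markers 6 were over 2-fold higher in it than in the other cells (Sox1, Pax3, Fabp7, Zic1, Nes and Lix1). None of these markers was among its 10 leading genes, and Zic1, Lix1 and Fabp7 were read in 10, 14 and 21 of its 66 cells. Pax6, of the same list, was over 2-fold higher in cluster 3 instead. The cluster also held 6 cells with a read of T, described below, and is called by its number. Cluster 2 held 44 cells of day 3 and 5 of day 6. It was led by Fbxo15, Tfcp2l1 and Morc1, with Esrrb and Klf2 also among its 10 leading genes, and 6 of 7 naive markers stood over 2-fold higher. It was also over 2-fold higher in 7 of 10 epiblast markers, among them Pou5f1, Nanog and Utf1, and since it held both sets it is called by its number. Cluster 3 held the remaining 35 cells of day 3, with Mal2 and Kcnt2 among its leading genes. Only 2 of 10 epiblast markers, Fgf5 and Lefty2, were at that level against all other cells, which include cluster 2. The 10 epiblast markers summed to 1148 CPM in cluster 3, 2288 in cluster 2 and 204 in cluster 1. Cluster 3 was left unnamed.

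The division of day 3 moved with depth, as the median was 430278 reads in cluster 3 and 216711 in cluster 2, and with the mitochondrial share, at 18.1% and 11.5%. The part of these in the division was not tested. Within day 3, the summed level of Zfp42 was 101 CPM in cluster 2 and 27.2 in cluster 3, that of Esrrb 16.4 and 0.965, and that of Fgf5 27 and 57.4. Cluster 2 was thus higher in naive genes and cluster 3 in Fgf5. The shared and separate positions of the cells are seen in the plot of principal components.

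**Figure D2:**
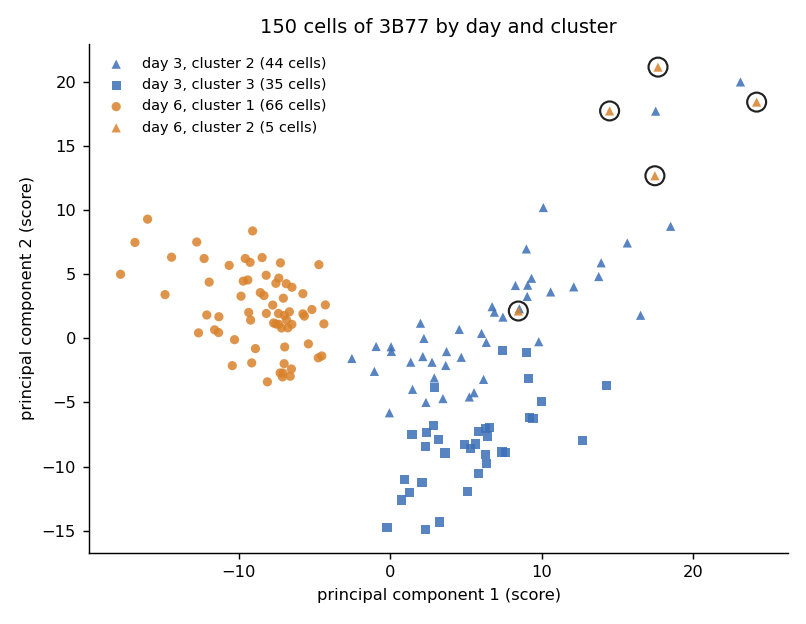
The 150 cells of 3B77 on the first and second principal components (scores of scaled log-normalised counts). Colour gives the day, shape the cluster, and rings mark the 5 day 6 cells of cluster 2, which lie apart from the other 66 day 6 cells and among or beyond the day 3 cells of that cluster.

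The pluripotency genes divided into a group that was far lower at day 6 and a smaller group that was retained. All 12 core pluripotency genes passed the filter, 8 were lower by 2-fold or more and none was higher, with a median log2 ratio of -3.09. Their summed level was 1761 CPM at day 3 and 401 CPM at day 6. Dppa5a (chromosome 9, 78367052 to 78368199), a marker of ESCs, ranged from 2.29 to 4641 CPM at day 3 with a median of 548, and had a read in 79 of 79 cells. At day 6 it had a read in 11 of 71 cells, with a median of 0 and a highest value of 1190.3 CPM. The lowest day 3 cell was above most day 6 cells, and the few high cells of day 6 are described below. Summed, Dppa5a was 11.4-fold lower (10.9 to 12). Utf1, a chromatin protein of undifferentiated cells, had a read in every day 3 cell, between 1.4 and 659 CPM with a median of 158, but in 7 of the day 6 cells, and was 56.2-fold lower (45.4 to 70.5). Dppa2 and Dppa4, which bind DNA as a pair, were 29.1-fold and 12.3-fold lower. Fgf4, the main Fgf ligand of ESCs, went from 44 to 4.65 CPM.

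The central factors moved less. Pou5f1 ranged from 12 to 551 CPM at day 3 with a median of 81.1, and from 0 to 133 at day 6 with a median of 18.2. It was 2.78-fold lower (2.58 to 3.00), yet 50 of 71 day 6 cells still had a read. Nanog stood at 40.5 CPM at day 3 and 44.8 at day 6. Its median was 21.5 CPM in the cells of day 3 (0 to 356) and 33.1 in those of day 6 (0 to 265), and its share of cells was 65.8% (54.3 to 76.1) and 71.8% (59.9 to 81.9). Nanog thus stayed within 2-fold, and so did Sall4 (70.2 and 112 CPM), Lin28a (51.6 and 77.1 CPM) and Sox2 (38.7 and 19.7 CPM). For Sox2 this rested on 5 cells of day 6, described below, without which its log2 ratio was -1.55. Sall4 is a zinc-finger partner of OCT4, and Lin28a blocks the maturation of let-7. A read of both Nanog and Pou5f1 was found in 40 of the 66 day 6 cells of cluster 1.

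**Figure D3:**
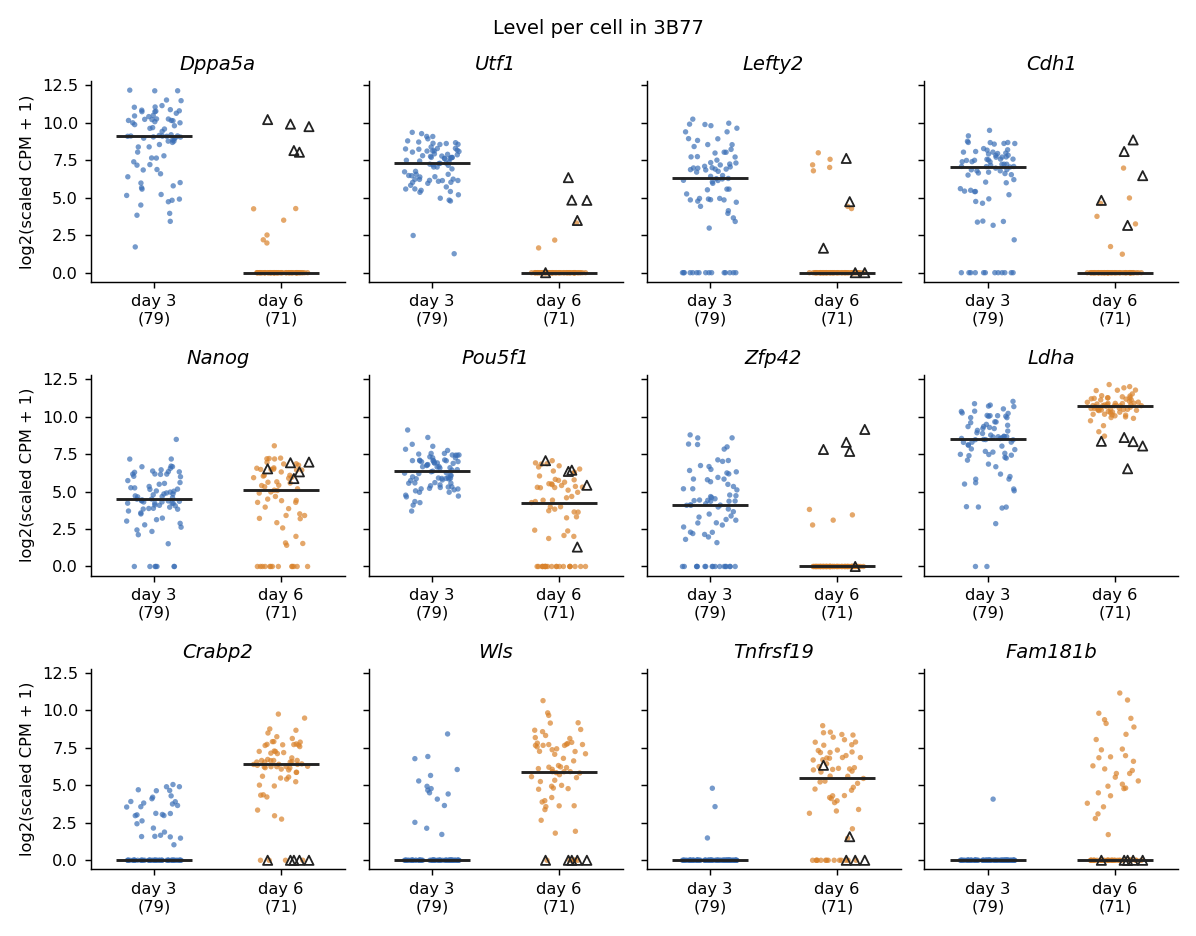
Level of 12 genes in each cell of 3B77, as log2(scaled CPM + 1), at day 3 (79 cells, blue) and day 6 (71 cells, orange). Bars are medians over cells, and open triangles mark the 5 day 6 cells of cluster 2. The 5 cells hold the highest day 6 values of Dppa5a, 4 of them hold the highest of Zfp42, and they have no read of Crabp2, Wls or Fam181b and Ldha below the day 6 median.

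The 5 day 6 cells of cluster 2 carried nearly all of the day 6 reads of several pluripotency genes. They were 7.04% of the day 6 cells (2.33 to 15.7) and held 9.22% of its reads, with 325645 to 475506 reads and 6089 to 7839 detected genes per cell. They held 99.2% of the day 6 reads of Dppa5a, 97.7% of those of Zfp42, 98.8% of those of Tfcp2l1 and all of those of Esrrb and Fgf4. Of the reads of Nanog they held 19.6% and of those of Pou5f1 18.9%. Of those of Sox2 they held 41.9%, with a level of 89.2 CPM against 12.6 in the other 66 cells. Reads of Nanog and Pou5f1 were thus found mostly outside the 5 cells, although Pou5f1 was lower at day 6. Zfp42, a zinc-finger gene of naive cells, was at 223 CPM in the median of the 5 cells (0 to 566), and had a read in 4 of the other 66 cells, at most 13 CPM. The E-cadherin gene Cdh1 was found in all 5 cells, between 7.92 and 463 CPM, and in 7 of the other 66. Crabp2, Wls, Cdh2, Sox1 and T had no read in the 5 cells. Since clustering on the same genes chose these cells, the values describe them. In 4 of 5 other clustering settings 5 day 6 cells again fell in clusters made up mostly of day 3 cells, and with the mitochondrial share regressed out 7 did. Their mitochondrial share was between 10.1% and 28.9%.

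The day 6 levels of several naive genes came mostly from these cells. Of 12 naive genes 6 passed the filter, with 1 higher, 2 lower and a median log2 ratio of -0.30. Without the 5 cells 2 passed, both lower, with a median of -4.35, and Zfp42 went from a log2 ratio of -1.10 to -5.09. Over all cells Zfp42 was within 2-fold under plain CPM and with mitochondrial genes left out of the total. Klf5, a Krüppel-like factor and the only naive gene called higher, at 1.11, turned to -0.58, and Hes1, an effector of Notch, went from 1.04 to 0.93 and was no longer called. Of the core list 9 of 12 genes were then lower, Sox2 being the one added, with a median of -4.21. Nr0b1, a partner of OCT4, was lower in either case, with 30.8 CPM at day 3 and 3.65 at day 6 over all cells.

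Genes of the primed epiblast were also lower at day 6, with 5 of the 8 that passed called lower, none higher, and a median log2 ratio of -2.80. Lefty2, a feedback inhibitor of Nodal, ranged from 0 to 1213 CPM at day 3 with a median of 77.2, and from 0 to 255 with a median of 0 at day 6. Its share of cells was 72.2% (60.9 to 81.7) and 11.3% (4.99 to 21), and it was 16.9-fold lower (15.1 to 18.8). The ranges overlapped, but few cells of day 6 kept the gene. Fgf5, the classical epiblast marker, went from 46.1 to 5.00 CPM, and Slc7a3, a transporter of basic amino acids, from 246 to 30.2. Otx2, which serves both the epiblast and the anterior neural plate, was within 2-fold with 102 and 89.2 CPM. It was found in 74 of 79 cells at day 3 and 48 of 71 at day 6, at a median of 84.4 and 34.1 CPM.

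Nodal and Fgf are signals of the epiblast. Of the Nodal genes 5 of 8 were lower and 1 was higher, with a median of -1.96. Of the 5 lower genes 4 are counted above as well, Tdgf1 and Gdf3 in the core list, and Lefty1 and Lefty2 in the primed list. The co-receptor Tdgf1 (241 and 25.4 CPM) and the ligand Gdf3 (147 and 13.3 CPM) were lower, whereas the receptor Acvr2b was 2.75-fold higher (2.47 to 3.05). Nodal itself was low, with 9.19 and 4.36 CPM. Among genes of Fgf and Erk signalling 6 of 11 were lower and 2 were higher, with a median of -1.14. The lower genes included the Erk targets Dusp6 (53.2 and 12.6 CPM), Etv5 (35.5 and 14.9 CPM) and Spry4 (11.8 and 3.13 CPM), although Etv5 was within 2-fold under plain CPM. The higher genes were the receptors Fgfr1 (22 and 49.4 CPM) and Fgfr2 (11.1 and 37.9 CPM). Fgf15, a ligand of the neural plate, was within 2-fold (54.7 and 53.4 CPM).

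The genes most higher at day 6 were close to absent at day 3. Fam181b (chromosome 7, 93079879 to 93081722), expressed in the developing nervous system, had 2 reads in 1 cell of day 3, and at day 6 a read in 33 of 71 cells, up to 2291 CPM with a median of 0. Its ratio of 2771 therefore had an interval of 767 to 22890.5, and 1 cell held 26.1% of the day 6 reads. Tnfrsf19, a TNF receptor family member and a known Wnt target, was read in 3 cells of day 3 and 54 of day 6, with a day 6 median of 43.1 CPM and a range of 0 to 505. Over the plates it was at 0.287 CPM at day 3 and 82.6 at day 6. Frzb, a secreted Wnt antagonist, had no read at day 3, which allows a share of up to 4.56% of cells at this depth, and a level of 30.9 CPM at day 6, at least 323-fold higher when set against a floor of 3 reads over the day 3 plate. These genes separated the days at the level of the plate, but Fam181b and Frzb were read in fewer than 1 in 2 of the day 6 cells.

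Wls and Crabp2 were the most widely read of the leading genes. Wls, which carries Wnt ligands to the cell surface, had a read in 16 of 79 cells at day 3, with a median of 0, and ranged from 0 to 1609 CPM at day 6 with a median of 59.5, 23.7-fold higher (20.9 to 27). Crabp2, a carrier of retinoic acid to its nuclear receptors, ranged from 0 to 32.3 CPM at day 3 with a median of 0, and from 0 to 864 at day 6 with a median of 83.4, 25.4-fold higher (21.4 to 30.4). Its share of cells was 17.7% (10.0 to 27.9) at day 3 and 83.1% (72.3 to 91) at day 6. The day 6 median of Crabp2 thus exceeded every day 3 cell. Hmga2, a chromatin protein of early progenitors and a let-7 target, was 53.7-fold higher, with reads in 3 and 40 cells. The axon guidance gene Slit2 was 35.3-fold higher, with reads in 2 and 32 cells. The reelin receptor gene Vldlr (0.191 and 20.7 CPM), the cadherin gene Cdh11 (0.287 and 20.7 CPM) and the imprinted gene Peg12 (0.0957 and 17.8 CPM) were also among the 15 steepest. Mir124-2hg, the host transcript of a neuronal microRNA, was counted under its own symbol and was at 0.415 and 19.4 CPM. The microRNA itself is not measured by this protocol.

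At the lower end, the 15 genes with the steepest difference downward included, beside the pluripotency genes, Car2 (carbonic anhydrase, 462 and 48.6 CPM), Abcc4 (a multidrug transporter, 176 and 17 CPM), and Platr10 and Platr22, long non-coding transcripts named for their association with pluripotency (12.5-fold and 35.4-fold lower). For all 30 genes at both ends, the share of cells with a read was higher on the day with the higher level. The genes were chosen by their ratio and by a read in at least 25% of the cells of the higher day. This count therefore follows largely from the choice.

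Neural progenitor genes were higher in part. Of the 9 structural and signalling genes that passed 6 were higher and none lower, with a median of 1.27. Vim, the intermediate filament vimentin, ranged from 0 to 817 CPM at day 3 with a median of 66.2 and from 0 to 1649.9 at day 6 with a median of 257, and was 2.33-fold higher (2.25 to 2.42). Ptn, the growth factor pleiotrophin, went from 2.27 to 54.6 CPM, the Wnt antagonist Sfrp1 from 16.5 to 47.7, and Prom1, encoding prominin, from 18.7 to 46.5. The neural stem cell filament Nes was at 13.2 and 26.2 CPM, just within 2-fold on the scale used.

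Of 29 neural transcription factors in the table only 10 passed the filter, with 4 higher, 2 lower and a median of 0.53. Under plain CPM 14 passed, with 8 higher, 1 lower and a median of 1.24. Pax3, a gene of the dorsal neural tube and neural crest, had 3 reads in 1 cell at day 3 and a read in 30 cells at day 6, with a ratio of 159 (54.1 to 774). Meis2, a TALE homeobox factor, was read in 28 and 62 cells with medians of 0 and 36.5 CPM, and was 5.03-fold higher (4.47 to 5.68). Irx3 was 10.4-fold higher, and Meis1, with no read at day 3, at least 137-fold. In contrast Pax6, a master gene of the forebrain and eye field, was 2.98-fold lower (2.51 to 3.55), with reads in 39 cells at day 3 and 15 at day 6, and Zic5 was 2.39-fold lower, though within 2-fold under plain CPM. Sox1, the earliest definitive neural factor, was within 2-fold at 8.68 and 15.7 CPM. Of the day 6 cells of cluster 1, 45 had a read of Otx2 (forebrain and midbrain), 32 of En1 (midbrain and hindbrain border) and 20 of Gbx2 (hindbrain). Six3 was read in 3, and none had a read of the eye field gene Rax, the ventral signal Shh or the proneural gene Neurog2.

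Some neuronal genes were higher without the full set. Stmn2, a microtubule regulator of growing axons, had a median of 37.8 CPM per cell at day 3 (0 to 683) and 207 at day 6 (0 to 1144), and was 3.01-fold higher (2.88 to 3.14). It was already read in 64 of 79 day 3 cells. Gap43, of the growth cone, went from 1.69 to 15.9 CPM and Stmn3 from 11.6 to 36.9, whereas the neurofilament gene Ina was 2.7-fold lower. Tubb3 was within 2-fold (61.7 and 114 CPM). Dcx, which marks migrating young neurons, was read in 1 day 6 cell. Of the 18 neuron genes 6 passed, with 3 higher and 1 lower.

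T was read in few day 6 cells, whereas genes of the primitive streak taken as a list were read in more. After thinning, a read of at least 1 of the 17 genes of the streak list was found in 27 of 71 day 6 cells. At day 3 it was found in 16 of 79 cells. The list summed to 7.72 CPM at day 3 and 36.9 at day 6. T, the brachyury factor of the streak and nascent mesoderm, had no read at day 3 and a read in 6 of the 66 cells of cluster 1 at day 6, between 7.59 and 349.9 CPM with a median of 116. The share of day 6 cells with T was 8.45% (3.16 to 17.5) after thinning, and 0% at day 3, with an upper bound of 4.56%. These 6 cells, selected by T and therefore only described, had a median of 296884 reads against 276350 in the other 60. Mixl1 was read in 3 of the 6 and 1 of the 60, Cdx2 in 3 and none, Fgf8 in 4 and 6, and Nkx1-2 in 4 and 7. Otx2 was read in 1 of the 6 and 44 of the 60, Sox2 in 1 and 42, Pax3 in none and 30, and Fam181b in none and 33. Other genes of both kinds did not follow this division, as Sox1 was read in 3 of the 6 and 36 of the 60, Gbx2 in 2 and 18, Meis2 in 6 and 53, Eomes in 1 and 9, and Wnt3a in 1 and 5. Nanog was read in all 6 and in 47 of the 60. Of the streak list Eomes alone passed the filter, with 6.19 and 6.23 CPM.

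The Hox genes Hoxa2 and Hoxb1 did not pass the filter. Both are genes of the hindbrain and trunk, and they stood at 0.319 and 0 CPM at day 3 and at 9.36 and 3.52 CPM at day 6. In cluster 1 each was read in 13 cells, 10 cells had both, and 50 of the 66 cells had neither. Each gene was read in 5 of the 6 cells with T and in 8 of the other 60. Of the 13 cells with Hoxa2, 4 also had Otx2. Spearman's rho over the 66 cells was 0.69 between Hoxa2 and Hoxb1 and -0.38 between Otx2 and Hoxa2. The points share a plate and most are 0 for the Hox genes. The arrangement of these genes over the cells is seen in the map of day 6 cells.

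**Figure D4:**
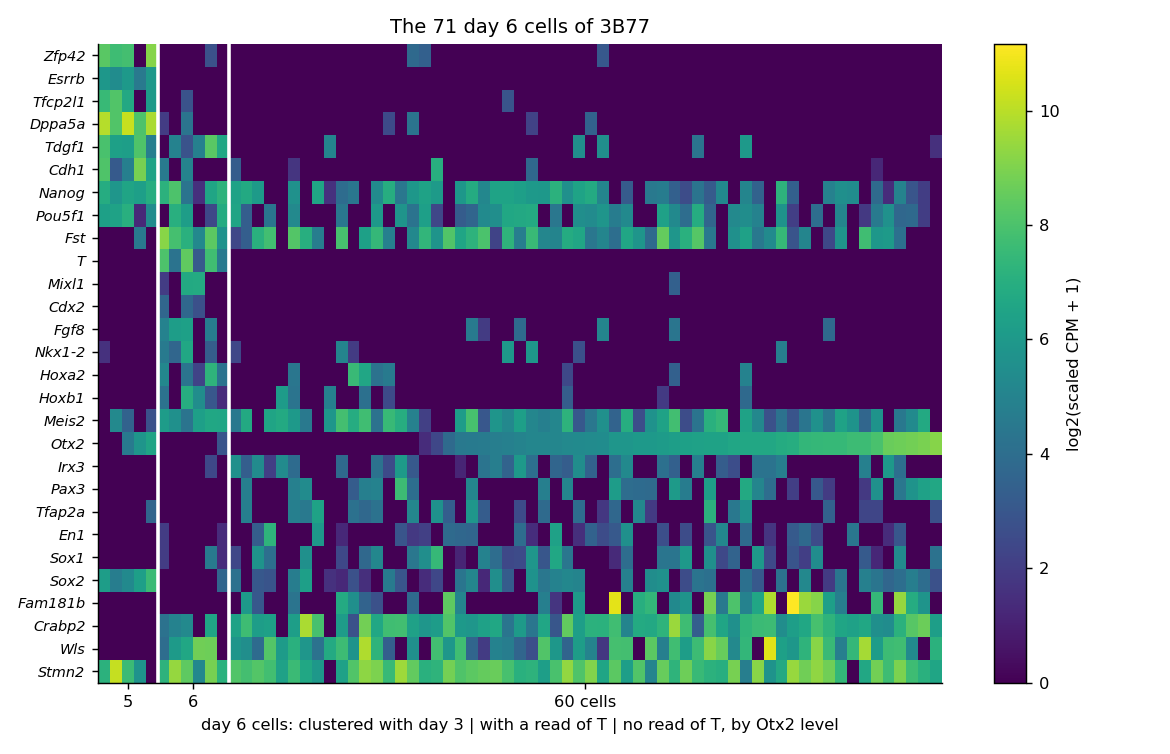
Level of 28 genes in each of the 71 day 6 cells, as log2(scaled CPM + 1) by colour. Cells are in columns, with white lines between the 5 cells of cluster 2, the 6 cells with a read of T and the other 60 cells, which are ordered by Otx2, and genes are in rows. Zfp42, Esrrb and Dppa5a are bright in the first block, Mixl1, Cdx2 and Fgf8 are read in a larger share of cells in the second than in the third, and Pax3 and Fam181b only in the third of the last 2 blocks.

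Endoderm, endothelium and blood, surface ectoderm and fibroblast genes were near 0 on both days, and none of these lists had a member that passed the filter. The summed level of 16 endoderm genes was 4.72 CPM at day 3 and 1.65 at day 6, and that of 16 genes of endothelium and blood 6.96 and 8.52 CPM. Kdr, the VEGF receptor of mesodermal and endothelial precursors, was at 0.957 and 0.839 CPM, in 1 and 3 cells, and Sox17 had 2 reads at day 3 and none at day 6. The 10 surface ectoderm genes summed to 4.98 and 4.26 CPM, and the 10 fibroblast genes to 4.34 and 3.61 CPM. Of 17 genes of later mesoderm and mesenchyme Prrx1 passed, at 0.191 and 12.3 CPM with 1 and 27 cells, and Hand1 was read in 3 day 6 cells. Of 12 neural crest genes Tfap2a (3.21-fold higher) and Msx2 (3.18-fold higher) passed, while Sox9, with no read at day 3, was at 2.03 CPM. For Msx2, 1 cell held 95% of the day 3 reads. The 11 genes of adult tissues that were in the table summed to 1.75 and 0.355 CPM.

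Of the adhesion genes, Cdh1 was lower and Cdh2 higher at day 6. Cdh1 ranged from 0 to 722 CPM at day 3 with a median of 132, and from 0 to 463 at day 6 with a median of 0, and was 8.31-fold lower (7.62 to 9.06). Cdh2, the N-cadherin gene of the neural tube and mesoderm, ranged from 0 to 121 CPM at day 3 with a median of 0 and from 0 to 119 at day 6 with a median of 11.3, and was 4.24-fold higher (3.51 to 5.16). In thinned cells Cdh1 went from 77.2% to 14.1% of cells and Cdh2 from 15.2% to 56.3%. Epcam (162 and 25.6 CPM) and the claudin Cldn6 (11.1 and 0.645 CPM) were also lower, and the Cdh1 repressors Zeb1 (10.4 and 28.9 CPM) and Zeb2 (3.99 and 31.5 CPM) were higher. Of the day 3 reads of Zeb2, 1 cell held 67.2%. Of the 9 genes of this list that passed 5 were higher and 3 lower, with Fn1 within 2-fold and the keratin Krt18 among the higher.

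Bmp targets and antagonists were higher in part, and the ligands Bmp4 and Bmp7 did not pass the filter. Of 8 Bmp genes that passed 4 were higher and none lower, with a median of 1.09. Fst, encoding follistatin, a binder of activin, had a median of 0 at day 3 (0 to 90.7 CPM) and 40.1 at day 6 (0 to 576), and was 11.6-fold higher (10.1 to 13.3). Id3, a direct Bmp target, was 6.38-fold higher, but 1 cell held 38% of its day 3 reads, and the decoy receptor Bambi was 2.57-fold higher. The remaining higher gene, Msx2, is counted under neural crest as well. Id1 and Id2, relatives of Id3, were within 2-fold. Bmp4 was at 0.383 and 3.48 CPM and Bmp7 at 0 and 1.26. Of 20 Wnt genes 3 passed, Lef1, Tcf7 and Sfrp2, all within 2-fold. The 20 genes summed to 44.6 CPM at day 3 and 92.3 at day 6, and 8 of them had no read at day 3 but all had one at day 6. Tcf7, a transcription factor of the pathway, had 40% of its day 6 reads in the 5 cells of cluster 2 and was lower without them, with a log2 ratio of -1.07. Dkk1, a Wnt antagonist with no read at day 3, was read in 14 cells at day 6, at 11.4 CPM over the plate.

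Of the genes that carry retinoic acid in the cell, Crabp2 is described above. Crabp1 was 12.1-fold higher, but its share of cells was 31.6% at day 3 and 33.8% at day 6, and a single cell held 55.2% of the day 6 reads. The receptor gene Rarg was 3.02-fold lower. Cyp26a1, which degrades retinoic acid, had no read at day 3 and was read in 14 day 6 cells, at 9.78 CPM, while Aldh1a2, which makes it, was at 1.12 and 1.16 CPM. In the Hedgehog list the receptor components Smo (2.45-fold) and Gas1 (5.03-fold) were higher, and Ptch1, receptor and target of the pathway, was 3.22-fold lower (2.92 to 3.55). In the Notch list Hes1 and Notch2 were the 2 of 5 genes that were higher, and none was lower, but both were within 2-fold in the mean of per-cell CPM and in thinned cells. With mitochondrial genes left out of the total 4 of 8 were higher.

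Genes of glycolysis and the response to low oxygen were mostly higher at day 6. HIF transcription factors, which are stable when oxygen is scarce, bind a core of ACGTG or GCGTG beside such genes. Of the 14 that passed 9 were higher and 1 lower, with a median of 1.63, and 12 were higher and none lower under plain CPM. Summed per cell over the list, the level was 422 to 4468 CPM at day 3 with a median of 1477, and 1112 to 9894 CPM at day 6 with a median of 4258. The ranges overlapped, but the lower quartile of day 6, 3061 CPM, was above the upper quartile of day 3, 2029 CPM. In the 5 cells of cluster 2 the median was 2089 CPM, against 4409 in the other 66 cells of day 6.

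Ldha (chromosome 7, 46842274 to 46855627), lactate dehydrogenase, ranged from 0 to 2072 CPM at day 3 with a median of 371, and from 91.1 to 4512 at day 6 with a median of 1641, 3.27-fold higher (3.21 to 3.33). Pgk1 (chromosome X, 106187100 to 106203699), phosphoglycerate kinase, ranged from 14.2 to 297 CPM with a median of 72.1 and from 71.2 to 846 with a median of 224, 3.59-fold higher (3.43 to 3.76). Ldha was read in 77 of 79 day 3 cells and Pgk1 in all, and both in all 71 day 6 cells, so that the days differed in amount more than in presence, with overlapping ranges. The aldolase gene Aldoa (432 and 1238 CPM), the glucose transporters Slc2a1 (51.8 and 154 CPM) and Slc2a3 (56.2 and 204 CPM), the phosphofructokinase gene Pfkl (22.1 and 95.2 CPM) and the mitophagy gene Bnip3 (9.57 and 50.2 CPM) were also higher. Eno1 and Hk2 were within 2-fold, at log2 ratios of 0.81 and 0.73. Pdk1, which holds pyruvate out of the mitochondria, was 2.11-fold lower (1.94 to 2.29), and within 2-fold under plain CPM. The hormone gene Adm had no read at day 3 and was read in 10 day 6 cells, and 1 cell held 70.4% of the day 6 reads of Ndrg1. Oxygen and EB size were not analysed here.

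The promoters of Ldha and Pgk1 are shown because both genes were read in nearly every cell and their median per cell was higher at day 6. Sequences are from RefSeq in GRCm38.p6, 250 bases before to 50 after a start, on the plus strand at chr7:46845554-46845853 for Ldha, the first of its 2 listed starts, and chrX:106186850-106187149 for Pgk1. Capitals mark ACGTG and GCGTG on either strand, which reads CACGT and CACGC for the opposite strand.
Ldha: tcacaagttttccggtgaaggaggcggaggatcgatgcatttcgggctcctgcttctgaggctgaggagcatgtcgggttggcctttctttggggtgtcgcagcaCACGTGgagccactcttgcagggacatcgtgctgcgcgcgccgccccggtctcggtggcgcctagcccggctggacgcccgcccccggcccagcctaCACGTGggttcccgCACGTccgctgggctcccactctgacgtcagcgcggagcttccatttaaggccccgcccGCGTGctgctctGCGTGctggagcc
Pgk1: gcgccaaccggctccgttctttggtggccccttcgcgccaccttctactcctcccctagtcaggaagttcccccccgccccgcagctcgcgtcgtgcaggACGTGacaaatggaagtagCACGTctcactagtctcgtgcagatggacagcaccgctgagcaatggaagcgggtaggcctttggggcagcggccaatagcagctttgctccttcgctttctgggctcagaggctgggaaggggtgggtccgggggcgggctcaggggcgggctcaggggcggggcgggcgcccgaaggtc
At least 1 of these motifs was found for all 14 list members that had a promoter in the table, in 18 of their 21 promoters, and for 43.8% of all promoters. Counted by gene, 46.7% of all genes with a promoter held one. The list was chosen as genes of glycolysis and low oxygen, so the count is no test. Eno1 and Hk2, within 2-fold, and Pdk1, lower at day 6, held a motif as well. A match of these letters describes the sequence and does not show binding.

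Genes of DNA methylation differed mostly in those that write or remove the mark, while the maintenance genes stayed within 2-fold. Of 7 that passed 3 were lower, Dnmt3a, Dnmt3b and Tet1, and 1 was higher, Tet3. The median was -0.29, and 0.00 under plain CPM. Without the 5 day 6 cells of cluster 2 it was -1.25, with 4 genes lower. The gene added was Tet2, also an oxidase of methylcytosine, at a log2 ratio of -0.29 with these cells, which held 56.8% of its day 6 reads, and -1.25 without them. Tet1, which oxidises methylcytosine, ranged from 33.5 to 1429.8 CPM at day 3 with a median of 331, and from 0 to 582 at day 6 with a median of 48.9, 3.98-fold lower (3.82 to 4.14). Its relative Tet3 was 2.73-fold higher (2.34 to 3.19), and 1 cell held 32.7% of its day 3 reads. The maintenance methyltransferase Dnmt1 (116 and 97.7 CPM) and its partner Uhrf1 (101 and 90.6 CPM) were within 2-fold. Dnmt3l, the inactive cofactor of DNMT3A, did not pass, at 4.59 and 1.36 CPM.

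Germline genes, many of which are held silent by promoter methylation, were not higher at day 6 in this Dnmt3b-/- clone. Of 20 genes 7 passed, 4 were lower and none higher, with a median of -1.10. The list includes Zfp42, described above among the naive genes, which is 1 of the 4 and lies at the median. Without the 5 day 6 cells of cluster 2, 5 of 6 were lower, with a median of -2.98. Sycp3, of the meiotic chromosome axis, was read in 35 of 79 cells at day 3, up to 275 CPM, and in 6 of 71 at day 6, and was 3.71-fold lower (3.21 to 4.29). The 5 cells of cluster 2 held 73% of its day 6 reads. Syce1 (16 and 2.84 CPM) and Stk31 (21 and 2.45 CPM) were lower, and Ddx4, of the germ granule, was within 2-fold (9.38 and 5.32 CPM). Dazl did not pass, with a read in 10 and 2 cells. No member of the 52 clustered protocadherins passed, and they summed to 5.14 and 19.1 CPM.

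Imprinted genes, expressed from 1 parental allele, were partly higher, with 5 of 14 called and none lower and a median of 0.46. Mest had a median of 20.7 CPM per cell at day 3 (0 to 930.3) and 146 at day 6 (0 to 1179), and was 5.06-fold higher (4.79 to 5.35). Ndn (3.21-fold), Nnat (3.56-fold) and Igf2r (3.23-fold) were also higher, as was Cdkn1c at the threshold (1.00 on the log2 scale), which was lost under 4 of the other settings. Peg3 and Meg3 were within 2-fold, and H19 and Plagl1 had no read on either day. The counts do not tell the alleles apart.

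Few of the cell cycle genes were called. Of 18 S phase genes 1 was lower, and of 18 genes of G2 and mitosis 1 was lower, with none higher in either list. The share lower was near that of all genes, 8.71%. Summed per cell, the S phase list had a median of 3387 CPM at day 3 and 2574 at day 6. The list of G2 and mitosis had 3316.5 and 2180 CPM, and the ranges of the days overlapped in both lists. The S phase median of -0.27 was 0.01 under plain CPM, and that of G2 and mitosis was -0.46 and -0.18. Top2a, which untangles chromosomes, was 2.76-fold lower (2.69 to 2.83), with a median of 631 CPM per cell at day 3 (0 to 2344) and 174 at day 6 (0 to 1112). The chromatin remodeller Hells was 2.51-fold lower, and Mki67 was within 2-fold (299 and 207 CPM). Among the D cyclins Ccnd2 was 6.46-fold higher (5.82 to 7.2), in 23 and 58 cells, while Ccnd1 was within 2-fold (57.7 and 35.2 CPM). Of 10 p53 genes 3 were lower and none higher, and the median of -0.20 was 0.02 when mitochondrial genes were left out of the total. Ccng1 (545 and 157 CPM), Trp53inp1 (157 and 33.2 CPM) and Eda2r (45.8 and 16 CPM) were the lower ones, whereas Cdkn1a (13.9 and 18.9 CPM) and Mdm2 (43.3 and 27.8 CPM) were within 2-fold. Of 13 mitochondrially encoded genes 2 were lower, and none was called under plain CPM. The 3 immediate early genes that passed were within 2-fold.

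To compare the change of 3B77 with that of the other lines, counts were summed per line and day, and the day difference of 3B77 was tested against that of WT, 3A2, 3A38 and 3B126 with edgeR. Of 22438 genes 0 (0.0%) had an adjusted p under 0.05, the smallest adjusted p was 0.545, and 189 had an unadjusted p under 0.05. DESeq2 called 7 genes, 2 with a higher and 5 with a lower change in 3B77. The fit had 3 residual degrees of freedom, and the median standard error of the tested log2 difference was 1.36 over the 5098 genes at 20 CPM or more. With this spread the count of 0 does not show that 3B77 changed like the other lines. 3B77 alone was batch 3, and a difference of batch in the day change cannot be told apart from one of the clone.

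Of the 10 genes with the smallest p, 9 were at no more than 1.16 CPM at day 6 in 3B77 and Gm37334 was at 3.97. Ctla2a was at 0 CPM in 3B77 at day 6 and at 62.7 (WT), 104 (3A2) and 93.9 CPM (3A38), but also at 0 in 3B126. Tal1, a master gene of blood, was at 0 in 3B77 and in 3B126, and at 41.8, 73.8 and 141 CPM in WT, 3A2 and 3A38. Calcrl, Ecscr, Reln, Aldh1a2 and Cryab were likewise at no more than 1.16 CPM in 3B77 and 0.363 in 3B126. Hoxa9 was at 0 in 3B77 against 13.2 CPM in 3B126, and Gng11 at 0.549 against 5.01. Kdr, not among these 10, was at 64.5 CPM in WT, 22.3 in 3A2, 59.7 in 3A38, 3.34 in 3B126 and 0.839 in 3B77 at day 6.

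Set side by side, many of the differences of 3B77 were present in some of the other lines too. The log2 ratio of Crabp2 was 4.38 in 3B77, 4.47 in WT, 5.34 in 3A38 and 5.31 in 3B126, but -0.29 in 3A2. That of Fam181b lay between 3.82 and 7.83 in the other lines, with 7.39 in 3B77. Pax3 was at 15.2 CPM at day 6 in 3B77, 11 in WT and 30.9 in 3A38, and at 0.509 and 1.52 in 3A2 and 3B126. Dppa5a had a log2 ratio of -3.49 in 3B77 and between -2.57 and 0.05 in the others. Nanog was within 2-fold in 3B77, WT, 3A2 and 3B126 (log2 ratios of 0.14, -0.47, -0.09 and 0.97), and at -6.50 in 3A38. Ldha was higher at day 6 by 1.71 in 3B77 and by 0.51 to 2.83 in the others, and Pgk1 by 1.83 and 1.32 to 4.51.

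The share of genes past 2-fold between the days was lowest in 3B77 among the 5 lines. Among genes at 20 CPM or more in a line, 544 of 4635 (11.7%) were past 2-fold in 3B77, against 55.8% in WT, 34.7% in 3A2, 37.4% in 3A38 and 58.3% in 3B126. The share of 3B77 was 34.8 percentage points under the mean of the others. An exact permutation test over the 5 lines gave p = 0.2, two-sided, which is the smallest p that 5 lines can give. With each cell thinned to 50000 reads the shares were 11.7% and 32% to 56.4%. The median detected genes per cell differed little between the days in 3B77 (6907 and 7203) and more in 3B126 (3713 and 5805.5), and the median mitochondrial share was 15.7% and 28.6% in WT. The part of these and of the batch in the result was not tested.

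**Figure D5:**
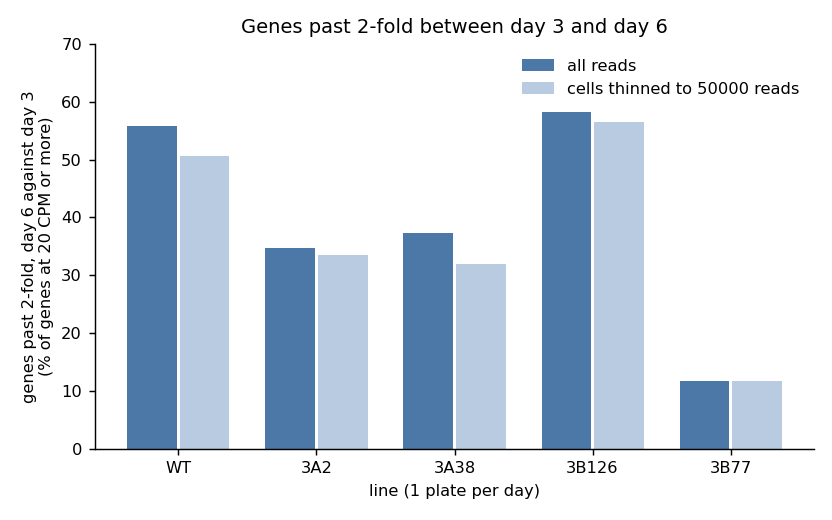
Share of genes at 20 CPM or more (mean of both days in that line) that differed by 2-fold or more between day 3 and day 6, in percent, for each of the 5 lines with 1 plate per day. Dark bars use all reads and light bars cells thinned to 50000 reads. 3B77 stands at 11.7% in both, and the other lines between 32% and 58.3%.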

How the data were processed

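Per the labels, 150 single cells of clone 3B77 were used, 79 at day 3 and 71 at day 6. The deposited values are raw read counts per gene and cell. The authors trimmed reads with Trim Galore 0.5.0, checked them with FastQC 0.11.2, aligned them to mm10 (GRCm38.p6) with STAR 2.7.1a and counted exons by gene name with featureCounts 1.6.1, leaving out reads that mapped to several places, so paralogs that share sequence are undercounted. No source names the strand option, hence a gene and its antisense partner cannot be told apart. The authors kept cells with at least 50000 reads and 2000 genes and at most 50% mitochondrial reads, and all 150 met these limits. Summed depth was 26201086 reads at day 3 and 21260425 at day 6. The doubted day 8 plate was not used.

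Counts were summed per line and day over 5 lines (10 sums) and scaled with TMM in edgeR 4.0.16 (R 4.3.3), with factors of 1.20 and 1.46 for 3B77. Per-cell levels were divided by the factor of their plate. The difference between lines used glmQLFit with robust estimation and glmQLFTest with line, day and the day effect of 3B77, where line is the block, and Benjamini-Hochberg adjustment. 3B77 was assumed to vary like the other lines. Nothing says that lines were repeated, so the spread is between lines with 1 plate per day. DESeq2 1.42.0 was an alternative. Clusters used Seurat 5.3.0, with 2000 variable genes, 8 principal components and resolution 0.8, without integration since both plates are of 1 batch. Wells were sorted to hold 1 cell and no doublet caller was run. Fits and level scripts were tested on simulated data. At the fitted dispersion of 0.823, the spread between lines, the edgeR test recovered 0% of 200 genes given a log2 difference of 2, 4 or 6. At a dispersion of 0.05 it recovered 38.5%, 93.5% and 98.5% of them. The test between lines could thus miss even large differences at the spread of these data. Python 3.11.15 with pandas 2.3.3 computed the other values.

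The text names the 15 genes with the largest ratio each way that were read in at least 25% of the cells of the higher day (predicted genes, pseudogenes and mitochondrial genes apart), up to 4 abundant members of each gene list, preferring those past 2-fold, the 10 genes with the smallest p against the other lines, and Dnmt3a and Dnmt3b. Other genes named were chosen after their values were seen. Some genes that the rule takes in are not reported here. The members and lists were chosen with earlier results of these data known. Alternatives were other scalings, other filters, thinning, stricter cell limits (100000 reads, 3000 genes, 30% mitochondrial), each gene without its top cell, other cluster settings, and, chosen after seeing the data, the day 6 plate without its 5 cells of cluster 2.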

Additional observations from a re-analysis of the deposited data

Results flagged for a closer look

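The predicted gene Gm37334 moved against all 4 other lines. Its log2 ratio of day 6 over day 3 was -1.57 in 3B77 (13.8 and 3.97 CPM) and between 2.32 and 4.72 in WT, 3A2, 3A38 and 3B126. It was singled out by this opposite sign and was among the 10 genes with the smallest p, but the difference did not pass edgeR's adjusted threshold. Reads were found in 7 cells at day 3 and 8 at day 6, 1 cell held 64% of the day 3 reads, and the gene was within 2-fold when the top cell of each day was left out. No group had 4 to 10 samples, so no sample could be tested as lying apart from its group.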

How the results depend on the processing

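With 1 plate per day, agreement between settings does not stand in for a repeat. The 1366 genes past 2-fold (639 higher, 727 lower) were within 1.5 times that number under other scalings, thinning, stricter cell limits, omission of each gene's top cell and omission of the 5 day 6 cells of cluster 2. They were 3374 without the level filter (1855 higher, 1519 lower), 544 at 20 CPM or more (170 higher, 374 lower) and 278 at 4-fold (129 higher, 149 lower). The higher genes alone were 1349 under plain CPM and 1358 with mitochondrial genes left out of the total. Of 92 named genes past 2-fold, 87 to 92 remained so under each setting, with mitochondrial genes not scored where they were left out of the total. Plain CPM lost Etv5, Zfp42, Zic5, mt-Cytb and mt-Tf, and leaving mitochondrial genes out of the total lost Zfp42. The mean of per-cell CPM and thinning each lost Cdkn1c, Hes1, Klf5 and Notch2. The omission of each gene's top cell lost Bambi, Cdkn1c, Gm37334, Hes1 and Klf5, and that of the 5 cells, chosen after seeing the data, lost Hes1 and Klf5. The cause was not tested for the other losses, and 1 ratio turned its sign, Klf5 at -0.58 without the 5 cells. Against the other lines the call count was 0, and 5 without the count filter and 7 with DESeq2. Leaving out each other line gave 0 to 2 (2 without 3B126). The fit without the line as replicate block also called 0, and the block is the line itself, since replicate numbers pair no samples here. Depth limits single cells most: a gene with no read on a plate can still be present in some of its cells.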
